A study of Arabidopsis thaliana with 10 samples.

Results

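The comparison set the double mutant LFYasEMF1/ult1-3 against the transgenic line LFYasEMF1 in whole seedlings of Arabidopsis thaliana, after each line had been set against the wild type (WT) array of its own slide. It used 8 of the 10 one-colour arrays of the study, namely 4 of WT, 2 of LFYasEMF1 and 2 of the double mutant. LFYasEMF1 expresses antisense RNA of EMF1 under the LFY promoter, which is active in young leaf primordia and meristems rather than in all cells. ult1-3 is a mutant allele of ULT1, and the double mutant carries both. Seedlings of every group grew in short days on agar with sucrose and were taken at 7 or 15 days of age. Each mutant had 1 array per age, and WT had 2. The parental accession of each line, the number of transgenic lines behind LFYasEMF1 and the number of seedlings per RNA sample are not given in the sources used here. The ult1-3 single mutant, with 1 array per age, is quoted only beside results that it bears on.

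EMF1 works with Polycomb group proteins, which place and read a repressive histone mark and keep flower genes silent while a seedling makes leaves. Plants with little EMF1 activity switch on floral organ identity genes early. ULT1 is a trithorax group protein with a SAND domain, and trithorax proteins oppose Polycomb silencing; ULT1 is known as an activator of the floral homeotic gene AG. The title of the study states that ult1-3 restores the phenotype of LFYasEMF1, and the comparison asks which transcripts return to the level of WT, which do not and which pass to the other side of it.

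LFYasEMF1 shared slide 1 with WT replicate 1 of both ages, whereas the double mutant shared slide 2 at 7 days and slide 3 at 15 days with WT replicate 2. The change of LFYasEMF1 from WT replicate 1 is called L below, that of the double mutant from WT replicate 2 is called R, and their difference, R minus L, is called D. L and R have no array in common. All values are log2 of the processed signal divided by the 75th percentile of its array (the scaled signal, where 0 is that percentile), and L, R and D are differences on that scale, given as the mean of the ages unless an age is named. A gene was called when its limma adjusted p was under 0.05 over all genes, and only called genes are said to rise or fall. The fit treats the ages of a mutant as its replicates, so a single age has a value and no test. Nothing in the labels says that arrays of a group came from separate cultures, so a p-value refers to the variation among these arrays only, and that variation may be technical.

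On each array 71.7% to 80.1% of the spots that were no controls were well above background, and no spot was saturated. Precision is limited by how few arrays there are. The median gene differed by 0.57 (absolute log2) between WT replicates 1 and 2 at either age, a difference that is subtracted in D only as far as it acted alike on WT and mutant. Over all genes the median D was −0.03, D at 7 and at 15 days correlated with r = 0.344 across genes (which are not independent replicates), and the median absolute difference between the D values of the ages was 0.84. All 21 genes of the photosynthesis list were well above background on every array, and of the 19 root genes 18 or 19 were on each array. In bulk RNA, fewer cells of a type and less RNA per cell cannot be told apart.

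ULT1 itself was examined first. Its scaled signal was −0.95 at 7 days and −0.65 at 15 days in WT replicate 1, −0.23 and −0.83 in LFYasEMF1, −0.20 and −0.16 in WT replicate 2, and −6.46 and −5.81 in the double mutant. The double mutant arrays thus lay far below all 6 others. ULT1 fell in D by 6.22 ± 0.49 (SE, 8 arrays; limma adjusted p = 0.0464) and in R by 5.96, or 62.1-fold (adjusted p = 0.0104), although only 1 of the 2 double mutant arrays was well above background. A second ULT1 probe gave a D of −6.15. In the ult1-3 single mutant, set against the same WT replicate 2, the ULT1 value was −2.37, so the ULT1 signal was below WT in both lines with the allele, by different amounts. Where the probes lie relative to the lesion is not given in the sources used here.

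The EMF1 probe went opposite ways in the transgenic lines, without a call. EMF1 stood above WT in LFYasEMF1 (L of 1.35 at 7 days and 1.07 at 15 days) and below WT in the double mutant (R of −0.81 over both ages). Its D of −2.02 ± 0.47 did not pass (limma adjusted p = 0.218). In the ult1-3 single mutant, set against the same WT replicate 2, the EMF1 value was −0.59. Whether the probe reads the sense or the antisense RNA of the transgene is not given in the sources used here. LFY, whose promoter drives the transgene, was well above background on 1 array of WT replicate 1, 1 of WT replicate 2 and none of the mutant arrays, and its D of 0.54 has no fold.

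Across 22328 genes with a value, 25 were called for D, 0.112% of those tested. Of these 14 rose (0.0627%) and 11 fell (0.0493%), with D between 4.54 and 9.49 in size, the same sign at both ages in all 25, and adjusted p from 0.0414 to 0.0479 by limma. At an unadjusted p under 0.05 there were 3518. None of the 25 kept its call when the arrays of either mutant at either age were left out, as each of those 4 fits called 0 genes. By comparison, L called 208 genes (0.932%; 0.479% higher and 0.452% lower than WT) and R called 97 (0.434%; 0.188% higher and 0.246% lower). Single arrays weighed on these counts too, as L called 98 genes without LFYasEMF1 at 7 days and 108 without it at 15 days, and R called 363 without the double mutant at 15 days.

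The genes called for D were mostly genes altered in LFYasEMF1 and near WT in the double mutant. Of the 25, 22 were also called for L and 4 for R (0.932% and 0.434% of all genes), with 1 called for both. D contains L and is tested with the same estimate of the spread. An overlap of the calls for D and L is thus favoured by construction, and nothing is read from it. LFYasEMF1 was at background on both arrays for 9 of the 25 that were on in WT replicate 1, and for 8 others it was on where WT replicate 1 was at background. TIF3C2, a gene related to a subunit of translation initiation factor 3, is an example of the latter. Its scaled signal was −7.75 and −7.96 (7 and 15 days) in WT replicate 1, −2.22 and −2.39 in LFYasEMF1, −9.09 and −7.55 in WT replicate 2, and −8.71 and −6.68 in the double mutant. The LFYasEMF1 arrays stood apart and the other 6 overlapped. TIF3C2 was at least 33.7-fold above WT in LFYasEMF1 and fell in D by 4.92 ± 0.38 (limma adjusted p = 0.046).

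Most of the 25 carry no symbol in the reference table, and those named by locus here were chosen after their values were seen. AT5G66052 had a scaled signal of 3.11 and 3.28 in WT replicate 1, −6.33 and −5.36 in LFYasEMF1, 3.19 and 1.81 in WT replicate 2, and 3.72 and 2.17 in the double mutant. It was thus among the bright genes on every array outside LFYasEMF1, and its D of 9.49 ± 0.43 was the largest of all genes tested (limma adjusted p = 0.0414). AT5G28919 behaved in the same direction, at 0.61 and 0.57 in WT replicate 1, below the background flag at −9.15 and −9.70 in LFYasEMF1, and at −0.56 and −1.51 in the double mutant. It was at least 235-fold below WT in LFYasEMF1 and rose in D by 8.77. The neighbouring loci AT1G80970 and AT1G80960 also rose in D, by 7.29 and 5.62. In the other direction AT3G28320 was at background on all WT and double mutant arrays and at 0.09 and 0.33 in LFYasEMF1, at least 193-fold above WT there, and fell in D by 7.85.

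A different probe of the same gene was measured for 6 of the 25 and had the sign of D in all 6, but it came within 1.5 log2 of it in only 3. For AT1G80970 the other probe gave 6.37 and for AT4G19630 it gave −5.29 against −6.10. For AT1G02020 it gave 1.65 against 7.27, for AT3G30805 −1.65 against −7.12, and for ACC2 −0.36 against −5.48. The D of these 3 genes thus differed between probes, and the cause was not tested.

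To describe which changes of LFYasEMF1 were still present in the double mutant, 207 genes were taken that were called for L and had an L of 1 or more in size with 1 sign at both ages (106 higher and 101 lower than WT). For each, R divided by L is the share of the change that was kept, on the log2 scale. A share between −0.25 and 0.25 is termed back at WT, 0.25 to 0.75 partly kept, within 0.25 of 1 kept, above that further from WT, and below −0.25 overshoot. Genes picked for a large L have an L that is too large on average, which pulls the share towards 0, and a gene whose L is only noise lands in the class back at WT. The classes are counts with no test. R shares no array with L, but their tests share 1 estimate of the spread.

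By this measure 79 genes were back at WT (38.2%), 57 partly kept (27.5%), 51 kept (24.6%), 9 further from WT (4.35%) and 11 overshot it (5.31%). The median share was 0.325, at 0.324 for the raised and 0.363 for the lowered genes. The class sizes moved with the settings, from 3 to 54 genes for overshoot and from 0 to 26 for further from WT, with 16.0% to 29.0% kept and 30.7% to 51.0% back at WT. With dim signals raised to a floor, a check on the same 207 genes added after seeing the data, 158 stayed in their class, among them 56 of the 79 back at WT. R was called for 57 of the 207 genes, against 0.434% of all genes, but genes called for L were also chosen for a small spread, which the test of R shares, so nothing is read from that share. These 57 were 39 of the 51 kept genes, all 9 that were further from WT, 8 of the 57 partly kept, 1 overshoot and none of those back at WT. The middle classes differed in direction, since 44 of the 57 partly kept genes were raised in LFYasEMF1 whereas 37 of the 51 kept genes were lowered. Most of these lowered kept genes lay in the stretches of chromosome 4 (11) and chromosome 5 (22) described below. Outside those stretches 4 of 12 kept genes were lowered.

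**Figure D1:**
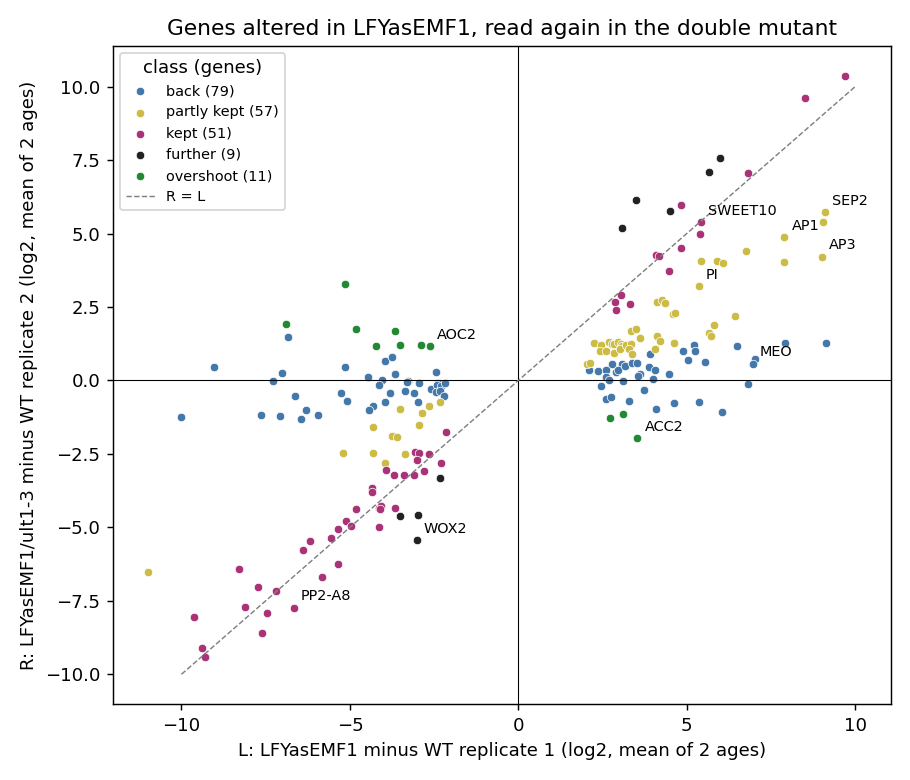
Each of the 207 genes altered in LFYasEMF1 is a point, with its log2 difference from WT replicate 1 in LFYasEMF1 on the x axis and the log2 difference of the double mutant from WT replicate 2 on the y axis, both means of 2 ages; colours mark the classes and the dashed line marks equal change. The 79 genes back at WT lie along the x axis, the 51 kept genes lie near the dashed line, and SEP2, AP3, AP1 and PI lie between.

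Choosing genes at 1 age and reading them at the other gave the same order for raised genes but not a single ratio. The ratio here is median R divided by median L, and not the median of the shares of single genes. Genes with an L of 2 or more at 7 days (700) had a median L of 1.17 and a median R of 1.00 at 15 days, a ratio of 0.852. Genes chosen so at 15 days (517) had a median L of 1.57 and R of 0.92 at 7 days, a ratio of 0.587. For lowered genes the medians were −1.38 and −0.14 (344 genes read at 15 days, ratio 0.103) and −1.07 and −0.26 (461 genes read at 7 days, ratio 0.245). A median R nearer 0 in the lowered genes was thus seen at both reading ages.

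Floral organ identity genes had the lowest median D of the 26 lists, except that without the slide correction the evening clock list was lower (−3.32 against −2.08). Of the 20 measured, 17 had a D below 0 at both ages, against 31.1% of all genes, and 2 had a D above 0 at both ages (28% of all genes); AG could be read at 7 days alone. The median was 3.97 for L, 1.42 for R and −2.41 for D, against a median D of −0.03 over all genes. Of the 20, L called 8 and R called 3, all higher than WT (0.479% and 0.188% of all genes). D called none over all genes (limma adjusted p from 0.152 to 0.52), although 15 had an unadjusted p under 0.05. The list was known from earlier results of these data to be raised in LFYasEMF1, so its direction is no independent evidence.

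SEP2, a MADS-box partner of the organ identity proteins, had the lowest adjusted p of the list. Its scaled signal was −9.61 at 7 days and −7.90 at 15 days in WT replicate 1, −0.26 and 0.96 in LFYasEMF1, −8.71 and −7.38 in WT replicate 2, and −3.36 and −1.27 in the double mutant. The double mutant lay between WT and LFYasEMF1 at both ages and overlapped neither. SEP2 was at least 212-fold above WT in LFYasEMF1 and 53.0-fold above WT in the double mutant, where 1 of the 2 WT arrays was at background. Both changes passed (limma adjusted p = 0.00299 and 0.00966), and D was −3.37 ± 0.45 (adjusted p = 0.152). SEP1, of the same subfamily, gave L values of 9.55 and 8.54, R values of 4.34 and 6.44, and a D of −3.65 ± 0.81, but WT replicate 1 was at background, so its L is read as at least 221-fold.

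AP3 and PI, the pair that specifies petals and stamens, were both intermediate. AP3 stood at −9.46 and −9.33 in WT replicate 1, −0.51 and −0.24 in LFYasEMF1, −7.84 and −8.87 in WT replicate 2, and −5.33 and −2.94 in the double mutant. No AP3 value of the double mutant reached that of WT or of LFYasEMF1, and the drop from LFYasEMF1 was larger at 7 days (D of −6.44) than at 15 days (−3.16). AP3 was at least 128-fold above WT in LFYasEMF1 and at least 16.3-fold in the double mutant, and its R was not called (limma adjusted p = 0.144). PI stood at −4.84 and −3.38 in WT replicate 1, 0.75 and 1.74 in LFYasEMF1, −4.11 and −3.13 in WT replicate 2, and −1.21 and 0.38 in the double mutant. PI was well above background on all 8 arrays, rose 41.0-fold in L and 9.20-fold in R (adjusted p = 0.00577 and 0.0355 by limma), and had a D of −2.15 ± 0.42.

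**Figure D2:**
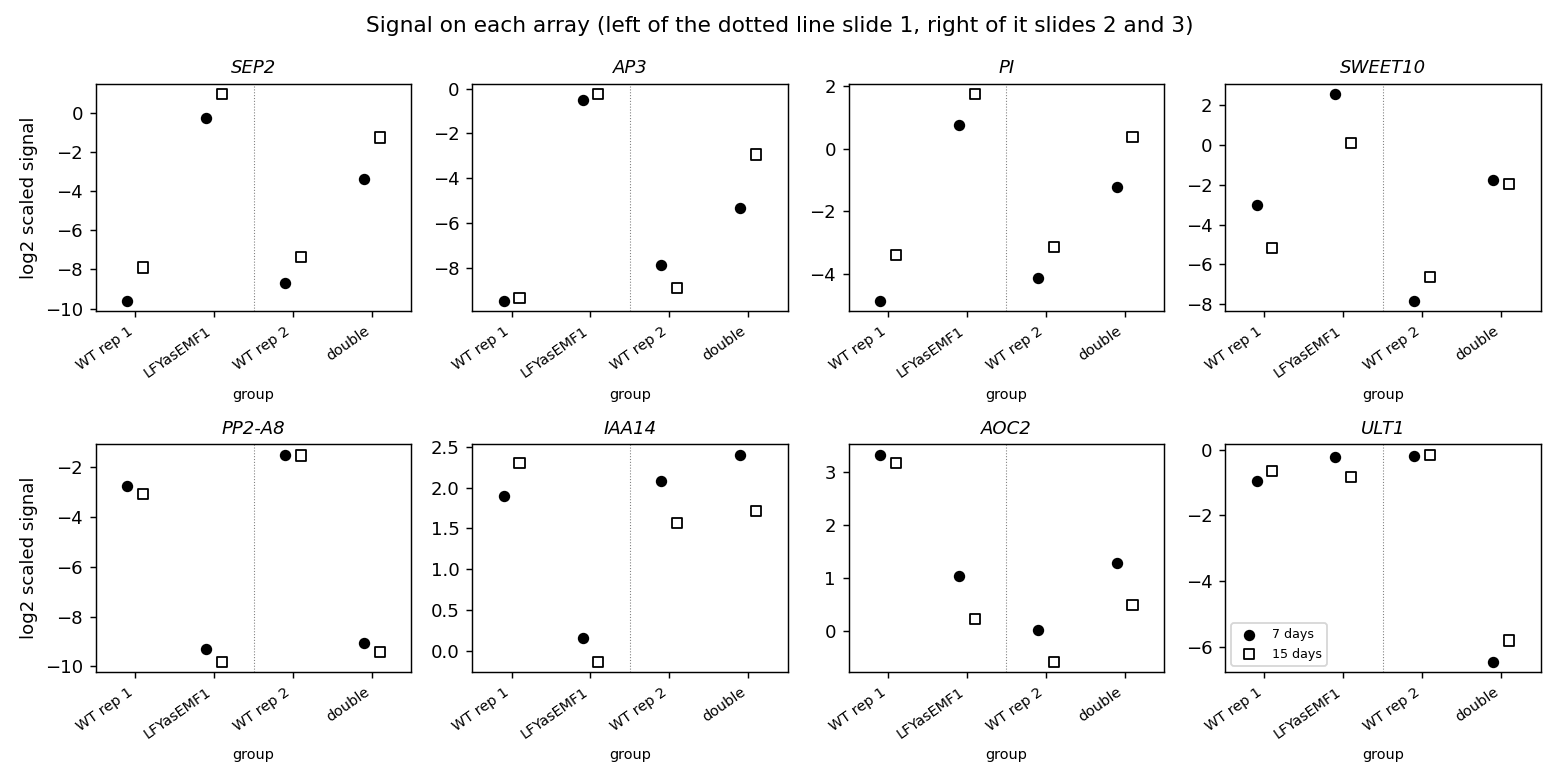
Scaled signal (log2) of 8 genes on each of the 8 arrays, with 7 days as filled circles and 15 days as open squares; the dotted line separates slide 1 from slides 2 and 3. The double mutant lies between WT and LFYasEMF1 for SEP2, AP3 and PI, far from its WT for SWEET10 and PP2-A8, near its WT for IAA14, above its WT for AOC2 and at −6.46 and −5.81 for ULT1.

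AP1, which marks floral meristems and sepals, had L values of 6.38 and 9.42 and R values of 4.66 and 5.08. It was at least 103-fold above WT in LFYasEMF1 and at least 13.0-fold above it in the double mutant, with both WT replicates at background. Its close relative CAL had a D of −2.59. FUL, of the same clade and with a role in fruit, had an L of 3.76, an R of 1.31 and a D of −2.44, which was −0.01 without the slide correction. At 7 days the scaled signal of FUL was −5.44 in LFYasEMF1 and −4.07 in the double mutant, with WT replicates 1 and 2 at −7.97 and −5.18. Of the AG clade, which specifies stamens, carpels and ovules, STK was at least 66.6-fold above WT in LFYasEMF1 and at least 7.47-fold in the double mutant. SHP2 gave R values of 1.23 and 3.60 against L values of 5.51 and 4.47, and SHP1 gave −0.01 and 2.46 against a mean L of 3.82. AG had an L of 4.73 at 7 days, where alone it could be read because the spot of WT replicate 1 at 15 days was an outlier, and its R was 1.28 and 2.05, with a D of −3.07 ± 0.58 (limma adjusted p = 0.216). The other AG probe gave an L of 5.94 and an R of 3.07.

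Of the 20 genes, 13 had an L of 1 or more at both ages, and D was below 0 at both ages in all 13. D is R minus L, so choosing genes for a high L favours a D below 0, and nothing is read from that count. Of the 13 genes, 12 were partly kept and 1, SUP, a repressor of stamen number, was back at WT. With dim signals raised to a floor, however, the D of SUP was 0.17 and not −2.22. The share kept ran from 0.203 to 0.650 with a median of 0.468, against a median of 0.26 for the 729 genes of any function with such an L (3.27% of all genes). It was 0.44 at 7 days and 0.686 at 15 days, and R was higher at 15 than at 7 days in 11 of the 13. SEP3 had an R of 0.11 at 7 days and 3.11 at 15 days against L values of 4.83 and 3.46. The difference between ages was not tested, since each age has 1 array per mutant. Left without the 7-day array of the double mutant, the list had a median D of −1.37 and a median share of 0.655.

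Members of the list that LFYasEMF1 hardly changed were lower in the double mutant than in WT. The co-repressor genes SEU and LUG had an R of −0.89 and −0.59, and AP2, which acts against AG in outer whorls, had −0.55, with L values between 0.05 and 0.11. UFO, which encodes an F-box cofactor of LFY, went the other way, with L values of −0.97 and −1.06 and R values of 0.85 and 1.18. None of these 4 genes was called for D (limma adjusted p = 0.302, 0.42, 0.412 and 0.202). LFY, which was well above background on no mutant array, had an L of −0.33 and an R of 0.21.

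**Figure D3:**
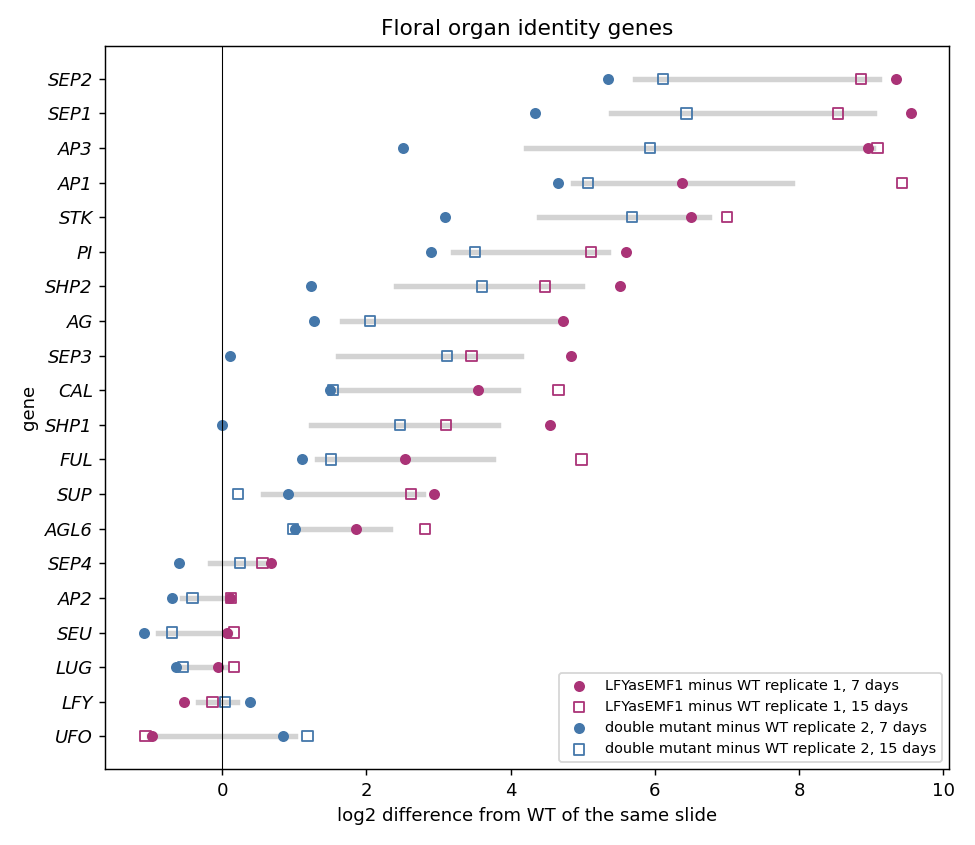
Log2 difference from WT of the same slide for the 20 floral organ identity genes, in LFYasEMF1 (purple) and the double mutant (blue), with circles for 7 days and squares for 15 days; grey bars join the means of the lines, and AG has no LFYasEMF1 value at 15 days. Blue symbols lie to the left of purple ones of the same age for 17 of 20 genes, and most of the blue symbols of the raised genes stay to the right of 0.

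Other flower and meristem lists moved less. Here and below, counts of genes higher or lower in D are of genes with that sign at both ages. They are to be read against 28% higher and 31.1% lower over all genes. Among 16 carpel and ovule genes, 6 were lower and 3 higher in D at both ages (median −0.45, but 0.01 without the 7-day LFYasEMF1 array and 0.16 without the 7-day double mutant array), including ALC, a gene of fruit opening (L of 2.04, R of −0.04), and BEL1, an ovule integument gene (0.84 and −1.09). The 8 stamen and pollen genes had a median D of 0.65 (0.18 with normexp and 0.32 without the slide correction), with none lower at both ages; the anther genes ATA7 and ROXY2 had D values of 2.96 and 0.90. ATA7 was above background on only 1 double mutant array and on no other, so it passed the filter only through the group where it is high, and its D was −0.35 with normexp background correction. Of 24 shoot meristem and KNOX genes 10 were lower and 5 higher (median −0.17, turning to 0.15 with quantile normalisation and to 0.29 without the 7-day double mutant array). CLV3, the signal peptide gene of the stem cells, had an R of 1.85 and 1.62 with an L of −0.21 and −0.49, and an ult1-3 value of 1.86 against the same WT arrays. PNF, a homeobox gene of the inflorescence, had a D of −1.85.

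Flowering time genes had a median above WT in LFYasEMF1 and below it in the double mutant, with 1 member called for L and 1 for R, both higher than WT. Of 32 measured, 18 were lower and 3 higher in D at both ages, and 11 were lower by 1 or more at both ages, against 7.15% of all genes. The median was 0.43 for L, −0.48 for R and −0.86 for D. AGL42, a relative of the flowering integrator SOC1, had a scaled signal of −5.99 and −3.38 in WT replicate 1, −2.94 and −1.37 in LFYasEMF1, −3.67 and −2.13 in WT replicate 2, and −6.40 and −2.58 in the double mutant. It was above its WT in LFYasEMF1 and below its WT in the double mutant at both ages, with a D of −4.13 ± 0.86 that was not called (limma adjusted p = 0.213). The ult1-3 single mutant, set against the same WT replicate 2, had an AGL42 value of −1.81, beside an R of −1.59. The other AGL42 probe gave an R of −0.20 and a D of −2.49. AGL19, a flowering activator under Polycomb control, had L values of 3.91 and 2.55 and R values of −2.62 and 0.35. It was well above background on only 1 array of WT replicate 1 and 1 of the double mutant. The D of AGL19 was −4.37, and −2.79 with dim signals raised to a floor. Its ult1-3 values against the same WT replicate 2 were −2.00 at 7 days and 0.17 at 15 days. Of the 10 members higher by 1 or more at both ages, 2 were back at WT, 2 partly kept, 1 kept, 1 further from WT and 4 overshot. Of the 729 genes of any function with such an L, 220 were back at WT, 234 partly kept, 96 kept, 39 further from WT and 140 overshot. Choosing genes for a high L makes the share too small on average, so nothing is read from these classes. AGL71, another SOC1 relative, was partly kept, at least 13.3-fold above WT in LFYasEMF1 and at least 3.76-fold in the double mutant (both called by limma, adjusted p = 0.00877 and 0.0371).

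Polycomb and trithorax genes were lower in D for 13 of 24 and higher for 3 (median −0.88), with a median L of 0.12 and a median R of −0.64. RING1B, of the complex that ubiquitinates histone H2A, had an R of −2.54 at 7 days and −0.29 at 15 days. PKL, a chromatin remodeller, had −1.73 and −0.88. Neither was called for D (limma adjusted p = 0.273 and 0.26). The ult1-3 single mutant, set against the same WT replicate 2, had a list median of −0.42.

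Auxin genes had a median below WT in LFYasEMF1 and near WT in the double mutant. Of 25, 16 had a D above 0 at both ages and 3 below, 7 had a D of 1 or more at both ages (4.08% of all genes), and the median was −0.77 for L, 0.14 for R and 0.75 for D. The median D was 0.73 at 7 days and 0.90 at 15 days, where the salicylic acid list (1.21), the jasmonate and ethylene list (1.19) and the stamen and pollen list (1.00) were higher. The 6 members with an L of −1 or less at both ages comprised 4 back at WT and 2 that overshot, and none was partly kept or kept. No auxin gene was called for L. Of the 531 genes of any function with such an L, 184 were back at WT, 123 overshot, 82 were kept and 35 further from WT. The rest were partly kept. Choosing genes for a low L makes the share too small on average, so nothing is read from these classes. YUC8, an enzyme of auxin synthesis, stood at −0.41 and −2.01 in WT replicate 1, −2.79 and −4.06 in LFYasEMF1, −1.53 and −1.82 in WT replicate 2, and −0.47 and −2.08 in the double mutant. The YUC8 signal was lowest in LFYasEMF1, and the other arrays overlapped; D was 2.62 ± 0.55 (limma adjusted p = 0.213). IAA14, an auxin response repressor of lateral root formation, had L values of −1.73 and −2.43, R values of 0.32 and 0.15 and a D of 2.32 ± 0.41 (adjusted p = 0.202), but its other probe gave a D of −1.89, so the probes disagree. No auxin gene was called for D, and 7 had an unadjusted p under 0.05, all higher.

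GA2OX6 and IRT1 stood below WT in LFYasEMF1 and, as the mean of the ages, above WT in the double mutant, without a call for L, R or D. GA2OX6, which inactivates gibberellin, had L values of −1.94 and −1.92 and R values of 1.57 and 0.53, while its relative GA2OX1 had 0.80 and 1.15 against −1.78 and −0.38. The gibberellin list as a whole was higher for 11 and lower for 4 of 21 (median D 0.53). IRT1, the main iron transporter of the root surface, had an L of −2.55 and an R of 1.02 (2.28 at 7 days and −0.25 at 15 days). The D of IRT1 was 3.56 ± 0.90, with a second probe at 3.67. Its value in the ult1-3 single mutant, against the same WT replicate 2, was 1.96. The copper transporter gene COPT3 was at least 11.5-fold above WT in LFYasEMF1 and not well above background in the double mutant or either WT replicate, with a D of −4.21 ± 0.62 (limma adjusted p = 0.166) that was −2.35 with dim signals raised to a floor. Iron and copper uptake genes had a median D of 0.62, with 12 of 24 higher and 5 lower, but the median was −0.05 with normexp and −0.06 without the 7-day LFYasEMF1 array.

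Defence and stress genes gave mixed values. AOC2, an enzyme of jasmonate synthesis, stood at 3.33 and 3.17 in WT replicate 1, 1.03 and 0.22 in LFYasEMF1, 0.02 and −0.58 in WT replicate 2, and 1.28 and 0.48 in the double mutant. It was thus below its WT in LFYasEMF1 (called, limma adjusted p = 0.0347) and above its WT in the double mutant, but the WT replicates themselves differed by more than the R of 1.16. D of AOC2 was 3.79 ± 0.41 (adjusted p = 0.0982). TAT3, a jasmonate-induced aminotransferase, had R values of 0.28 and 3.66. The jasmonate and ethylene list was higher for 9 and lower for 6 of 23 (median 0.05, but −0.37 without the 15-day double mutant array). The salicylic acid list was higher for 5 and lower for 1 of 19 (median 0.25), against 28% and 31.1% of all genes. In that list FMO1, a gene of systemic resistance, was at 0.79 and 4.80 in D, and WRKY38 at 0.46 and 3.90.

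Of the abiotic stress lists, that of cold was higher in D for 7 and lower for 3 of 13 (median 0.49, but −0.22 without the 15-day LFYasEMF1 array and −0.18 without the 7-day double mutant array), and that of drought and abscisic acid for 7 and 3 of 17 (median 0.41). CBF1, a cold-response transcription factor, had an R of 1.60 and 2.38 and an L of −0.31 and −1.91, and CBF2 had R values of 1.64 and 3.54. NCED3, the key enzyme of abscisic acid synthesis, had L values of −1.78 and −1.14 and R values of 2.36 and 1.05, with a D of 3.16 ± 0.57 (limma adjusted p = 0.202). AFP1, a brake on abscisic acid signalling, had a D of 1.12. Of 17 leaf senescence genes 5 were higher and 6 lower (median −0.04, but 0.08 with the mean of probes, 0.37 without the 15-day LFYasEMF1 array and 0.23 without the 7-day double mutant array), with WRKY53 at 3.41 and NAP, another senescence regulator, at −2.91. None of these genes was called.

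Of the 5 phloem lectin genes measured, 3 fell in L and 2 in R, against 0.452% and 0.246% of all genes called lower. The median was −3.38 for L, −2.51 for R and −0.38 for D, which turned to 0.18 with no filter and to 0.33 without the slide correction. PP2-A8, a lectin gene of the phloem PP2 family, had a scaled signal of −2.73 and −3.06 in WT replicate 1, −9.31 and −9.81 in LFYasEMF1, −1.49 and −1.52 in WT replicate 2, and −9.04 and −9.43 in the double mutant. All 4 mutant arrays were at background and all 4 WT arrays well above it. PP2-A8 was at least 21.0-fold below WT in LFYasEMF1 and at least 44.6-fold in the double mutant (limma adjusted p = 0.00299 and 0.00407), and D was −1.07 ± 0.37 (adjusted p = 0.287). Its neighbour PP2-A6 behaved alike, at least 16.6-fold and 13.8-fold below WT, whereas PP2-A3, of the same family on another chromosome, had an L of 0.47 and an R of −1.09.

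SWEET10, a sugar transporter gene, was raised to the same extent in both lines. Its scaled signal was −2.99 and −5.18 in WT replicate 1, 2.57 and 0.09 in LFYasEMF1, −7.83 and −6.63 in WT replicate 2, and −1.76 and −1.94 in the double mutant. Each mutant array lay above the WT array of its slide by 4.69 or more, although the double mutant arrays were below both LFYasEMF1 arrays, since WT replicate 2 was lower than replicate 1. SWEET10 rose 42.7-fold in L and 41.6-fold in R (limma adjusted p = 0.0107 and 0.018), and D was −0.04 ± 0.56. Of the other 16 SWEET genes measured, SWEET14 and SWEET13 had D values of −3.35 and −2.30. SWEET14 was at background on both arrays of WT replicate 1 and of the double mutant, and with dim signals raised to a floor its D was −0.12; that of SWEET13 was 0.93 without the slide correction. The list had a median of −0.03 (0.02 with quantile normalisation) with 6 higher and 3 lower.

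Further kept changes with a symbol were rises of ACP5, an acyl carrier protein gene (L of 4.17, R of 4.24), and MSP2 (at least 3.60-fold and 7.85-fold above WT, which was at background), and a fall of the cytochrome P450 gene CYP712A2 (at least 3.60-fold and 4.40-fold, at background on all 4 mutant arrays). Where a gene was at background in both mutants, as for 22 of the 51 kept genes, L and R are bounds and do not show that the changes were equal. All 3 were called for L, and MSP2 and CYP712A2 also for R, while ACP5 had an adjusted p of 0.0536 for R by limma. WOX2, a homeobox gene of the early embryo, was further from WT in the double mutant, at least 5.28-fold lower in LFYasEMF1 and at least 12.6-fold lower in the double mutant. ESM1, which steers glucosinolate breakdown away from nitriles, fell 5.05-fold in L and 9.98-fold in R. Neither had a called D (adjusted p = 0.207 and 0.332). Of the 9 genes further from WT, AT2G45135 and AT1G27860, named after their values were seen, also had values of 5.63 and 5.35 in the ult1-3 single mutant against the same WT replicate 2.

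The kept genes were unevenly placed on the chromosomes. Of the 51, chromosome 5 held 32, chromosome 4 held 13, chromosome 3 held 5, chromosome 1 held 1 and chromosome 2 none, whereas the 79 genes back at WT numbered 27, 9, 19, 9 and 15 on chromosomes 1 to 5. Chromosomes 4 and 5 carried 15.1% and 23.2% of the genes tested. In a stretch of chromosome 4 from AT4G00416 to AT4G07950, 15 of 440 genes tested were altered, 12 of them lowered, and 13 of the 15 were kept. In a stretch of chromosome 5 from AT5G42965 to AT5G59650, which holds PP2-A8, PP2-A6, MSP2, SWEET10 and WOX2, 36 of 1520 were altered, 26 of them lowered, with 26 kept, 2 further from WT and 3 back at WT. Both stretches were picked after the values were seen, each from its first to its last kept gene, so their counts have no test. Altered genes made up 3.41% and 2.37% of the genes there and 0.764% elsewhere, where 75 of 156 were back at WT and 12 kept. All 25 genes called for D lay outside both stretches, as did 20412 of the 22372 genes tested. The stretches were set by kept genes, whose R is near L, so nothing is read from this. Of the 51 kept genes, 22 were at background on all 4 mutant arrays. Whether the lines differ from WT in the DNA of these stretches was not tested.

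**Figure D4:**
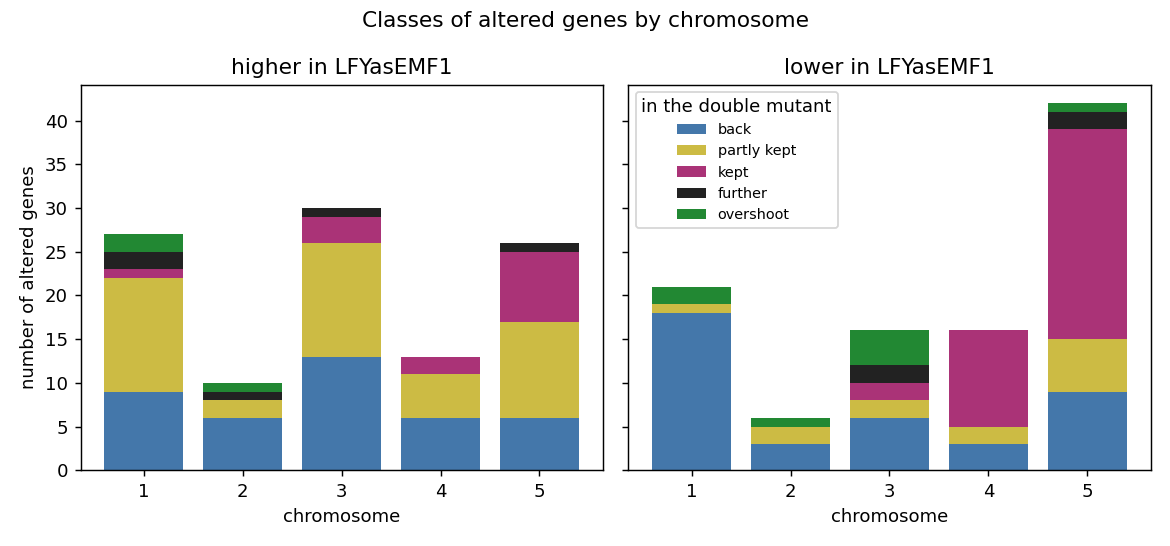
Number of altered genes on each of the 5 chromosomes by class in the double mutant, for genes higher in LFYasEMF1 (left) and lower in LFYasEMF1 (right). Kept genes (purple) make up 24 of the lowered genes on chromosome 5 and 11 of those on chromosome 4, and none of those on chromosomes 1 and 2.

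Among the genes back at WT, those with a symbol and the largest L included MEO, at −2.01 and −2.98 in LFYasEMF1 and at background on all arrays of WT and of the double mutant (D of −6.38 ± 0.56, limma adjusted p = 0.063, and −3.71 with dim signals raised to a floor). XTH29, a cell wall enzyme gene, was at least 10.8-fold above WT in LFYasEMF1, with WT replicate 1 at background, and had an R of 1.00; with dim signals raised to a floor its share was 0.34, which is partly kept. The receptor kinase gene CRK14 was at background on both LFYasEMF1 arrays, at least 38.8-fold below WT, and had an R of −0.42. LOH1 was at least 29.9-fold below WT in LFYasEMF1 with a D of 5.86, but its other probe gave a D of −2.92, so its probes disagree.

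An R of 1 or more in size at both ages on the other side of WT was found for 7 of the 207 altered genes, 5 of them in the overshoot class and 2 with a share near 0; of all genes 3.15% had an R of 1 or more at both ages and 3.68% one of −1 or less. ACC2, a plastid acetyl-CoA carboxylase gene, stood at −5.56 and −5.14 in WT replicate 1, −2.14 and −1.49 in LFYasEMF1, −5.45 and −3.69 in WT replicate 2, and −7.47 and −5.57 in the double mutant. It was above WT in the one line and below it in the other at both ages, fell in D by 5.48 ± 0.36 (limma adjusted p = 0.0415), and had an R of −1.95 that missed the threshold (adjusted p = 0.0786). Its other probe, as given above, hardly differed between the lines. AT1G22810, named after its values were seen, had L values of −4.94 and −5.37 and R values of 3.78 and 2.81, and was the 1 gene of the class called for L, R and D. Its WT replicates differed widely (0.39 and −2.15 against −8.62 and −9.53, the latter at background), and the ult1-3 single mutant had a value of 3.09. AT14A, a gene related to integrins, had L values of −7.62 and −6.17, R values of 0.81 and 3.00 and a D of 8.80 ± 0.89 (adjusted p = 0.0824). Among the 11 overshoot genes, R was called for 1, and 3 had both double mutant arrays at background, 2 of them with both arrays of WT replicate 2 at background too.

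Some changes appeared with ult1-3 and not with the transgene alone. MRD1 stood at 2.15 and 2.02 in WT replicate 1, 2.73 and 1.86 in LFYasEMF1, 2.05 and 1.56 in WT replicate 2, and −3.97 and −4.46 in the double mutant. It fell in R 64.7-fold and in D by 6.23 ± 0.41 (limma adjusted p = 0.00806 and 0.0415), and the ult1-3 single mutant gave −5.31 against the same WT arrays. ULT1 and MRD1 were the 2 genes called for D whose L was under 0.5 and whose R was 1 or more in size. AT2G25330, named after its values were seen, was at background on all arrays of WT and LFYasEMF1 and at −3.97 and −3.58 in the double mutant, at least 20.9-fold above WT, with an ult1-3 value of 5.97 against the same WT arrays.

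Enzymes of aliphatic glucosinolate synthesis, which make defence compounds from methionine, were lower in the double mutant. Of 13 measured, 7 were lower in D at both ages and none higher (median −0.98), with a median L of −0.36 and a median R of −1.36. The median D was −1.52 at 7 days and −0.15 at 15 days. CYP79F2 had an R of −3.14 and −0.77 and CYP79F1 of −5.22 and −0.98, both without a call for D (limma adjusted p = 0.35 and 0.556). The difference thus rests on the 7-day array of the double mutant, without which CYP79F1 had a D of 0.31. The 10 indole glucosinolate genes were higher for 4 and lower for none (median 0.38, −0.02 without the 15-day LFYasEMF1 array), led by CYP81F2, which modifies indole glucosinolates (D of 2.54), and CYP79B3 (0.73).

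Seed maturation genes were higher in D for 7 and lower for 3 of 21, against 28% and 31.1% of all genes. Their median D was 0.55, but it turned to −0.22 with normexp and to −0.44 with a filter on 5 arrays. The storage protein gene SESA2 was at least 2.38-fold below WT in LFYasEMF1, where it was at background, and had R values of 1.67 and 1.78. OLEO1, an oil body protein gene, was above background on 1 array alone, that of the double mutant at 7 days (−2.46), where its R was 6.52 against 1.32 at 15 days.

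Morning clock genes had a median below their WT in the double mutant and above theirs in LFYasEMF1. Of 10 measured, 9 had a D below 0 at both ages and none above (median L of 0.56, R of −1.05 and D of −1.72). PRR9 stood at −6.14 and −3.77 in WT replicate 1, −4.85 and −2.29 in LFYasEMF1, −1.80 and −2.04 in WT replicate 2, and −3.79 and −2.72 in the double mutant, with a D of −2.72 ± 0.54 (limma adjusted p = 0.207). CCA1, a core morning repressor, had an R of −2.79 and −0.69. The slides themselves differed in clock state, as the median evening minus median morning signal was between 1.01 and 3.52 on the arrays of slide 1 and between −3.51 and −2.83 on those of slides 2 and 3. On slide 1 it was lower in LFYasEMF1 (2.39 and 1.01) than in WT (3.52 and 2.29), and on the other slides it was −3.27 and −3.51 in the double mutant, with WT at −2.88 at 15 days and likewise slightly above the double mutant at 7 days. Compared across slides with no slide correction, the median D of the morning genes was 0.83 and not −1.72, and that of the evening genes −3.32 and not −0.51. The part of harvest time or slide in the D of clock genes was not tested. Evening genes were lower for 5 and higher for 2 of 10 (median −0.51), with ELF3 at −1.25 and BOA, which was higher, at 1.23 and 1.38 (7 and 15 days).

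The remaining lists lay closer to all genes. Photosynthesis genes were higher for 16 and lower for none of 21, though by a median D of only 0.26 (−0.02 with quantile normalisation) and a largest D of 0.41 (LHCB5, an antenna protein gene). None had an unadjusted p under 0.05. Anthocyanin and flavonoid genes were lower for 12 and higher for 5 of 21 (median −0.70), with the regulator PAP2 at −3.94 and −0.36 (7 and 15 days) and the enzyme gene DFR at 4.30 and 0.12. Both rest on the 7-day arrays, since without that of the double mutant PAP2 was at −0.05 and without that of LFYasEMF1 DFR was at 0.09. Heat shock genes had a median D of −0.50, with 4 of 12 lower (31.1% of all genes) and 2 higher (28%). HSP17.6II was at −1.87 and HSP17.6A at −1.67. Cell cycle genes had a median of −0.23 (0.38 without the 7-day double mutant array; 7 lower and 5 higher of 23), with the cell cycle inhibitor KRP1 at −2.07 and the cyclin gene CYCD3;2 at 1.42. Root genes had a median of −0.16 (0.04 without the 7-day LFYasEMF1 array; 8 lower and 6 higher of 19), with the root hair genes RHD6 at −1.06 and PRP3 at 0.76 and 1.64 (7 and 15 days). Over all 26 lists no gene was called for D.

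**Figure D5:**
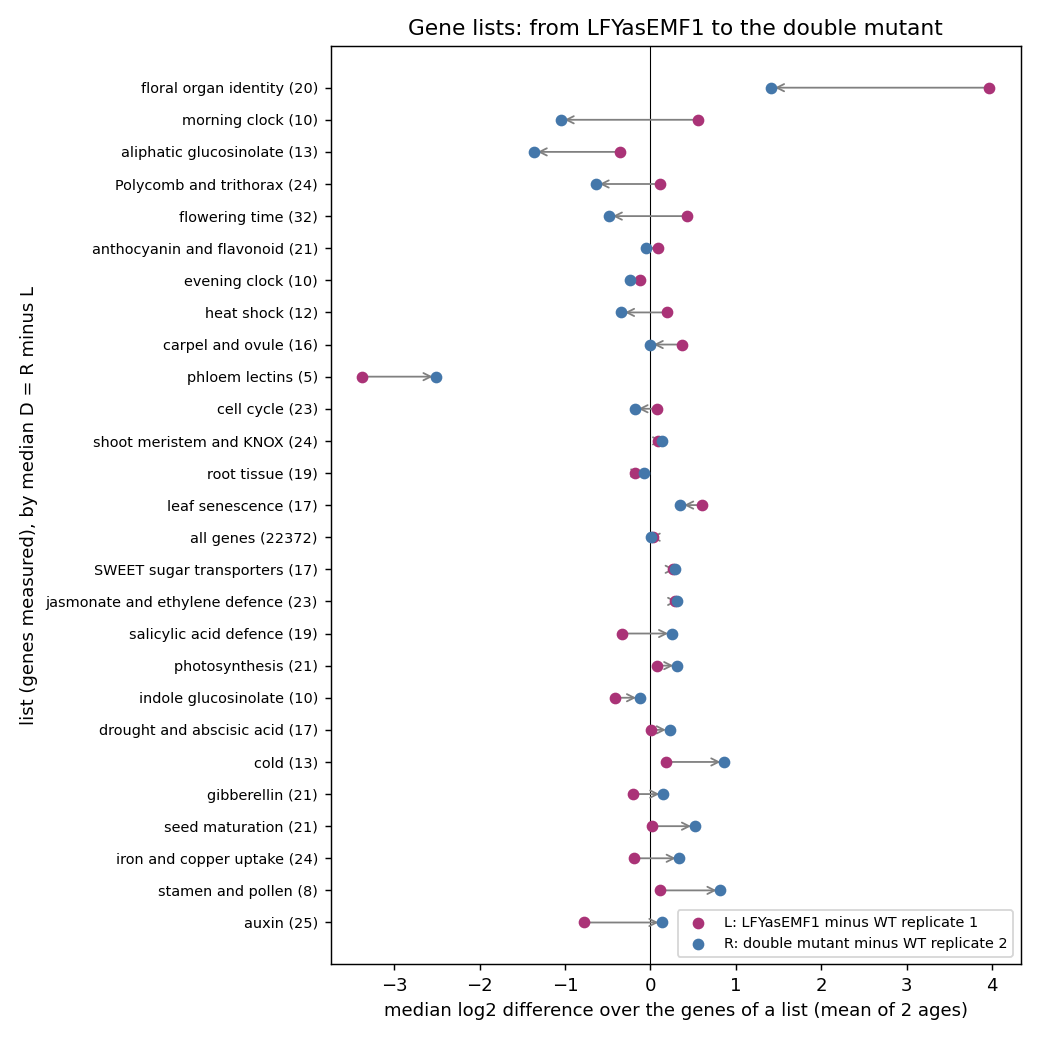
Median log2 difference from WT of the same slide over the genes of each of the 26 lists and over all genes, in LFYasEMF1 (purple) and in the double mutant (blue), with arrows from the former to the latter; numbers of genes measured are in brackets. The floral organ identity list moves from 3.97 to 1.42, the auxin list from −0.77 to 0.14, the morning clock list from 0.56 to −1.05 and the phloem lectin list from −3.38 to −2.51.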

How the data were processed

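RNA of whole seedlings was hybridised to 10 one-colour Agilent arrays, of which 8 enter the comparison (ult1-3 is quoted as values only). Signals were read by the authors in Agilent Feature Extraction (version 10.7.1.1), per the submitters' processing notes. Per the file headers, the deposited processed signal is a linear intensity, background-subtracted and detrended within an array and not normalised between arrays. The deposited value table holds intensities too; its normalisation is not given in the sources used here, and it served only as an alternative.

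Signals were divided by the 75th percentile of their array and put on a log2 scale; this leaves differences in the shape of the distributions between arrays. Outlier spots were left out. Of 43603 probes, 34358 matched a locus in a RefSeq gene table (TAIR10.1), used for names and gene order only. A gene was represented by its brightest probe and kept if that was well above background on at least 1 of the 8 arrays, which left 22372 genes; 145 lacked a value on some array and 44 had no D. Dim signals are surrogates near background, so if no array of a group had the gene well above background its fold is a lower bound ("at least") against the lowest well-above-background signal of each array.

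L, R and D came from 1 fit in limma 3.58.1 (R 4.3.3) of 4 blocks, each holding a mutant array and the WT array of its slide and age, plus genotype (2 residual degrees of freedom), with eBayes; p-values were Benjamini-Hochberg adjusted over all genes. The fit was tested on simulated data. By the barcodes of the scans, WT replicate numbers mark slides, and so define the blocks. The labels give each mutant 1 array per age.

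Of 490 entries in 26 gene lists, 7 were dropped because the symbol was not a name of the locus, and 465 of the other 483 were measured. Genes were named by rule: ULT1, EMF1, LFY and the floral organ identity genes, the called genes or the 2 largest D of each other list, the 10 largest called changes with a symbol in each direction, the 6 largest L of each class with a symbol, strict overshoots, and genes called for D with an L under 0.5. Of these, 1 gene is not reported here. The members of the comparison, the lists and the rules were chosen with earlier results of these data known.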

Additional observations from a re-analysis of the deposited data

Results flagged for a closer look

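For 3 gene lists the median D was below 0 at one age and above 0 at the other by more than 0.25. The jasmonate and ethylene defence list had a median D of −0.45 at 7 days and 1.19 at 15 days. The cell cycle list had −0.75 at 7 days and 0.30 at 15 days. The heat shock list had −1.19 at 7 days and 0.28 at 15 days. The difference between ages was not tested in any of them, since each age has 1 array per mutant, and the ages of the double mutant lay on different slides.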

How the results depend on the processing

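Of the genes called for D, ULT1, TIF3C2, ACC2 and MRD1 were followed through the alternatives. Neither they nor the floral and auxin medians changed direction under any of them. The auxin median was the highest of the lists in 9 of 17 settings and the floral the lowest in 16. These counts include the main fit and settings that left both medians as in that fit, and which are thus no separate checks. Those settings were all 10 arrays, slide 1 against slides 2 and 3, trend and robust variances, and a minimum change of 1. Of the other list medians, 10 turned sign without the replicate block, among them morning clock (0.83), heat shock (2.31), cold (−0.58) and anthocyanin (0.63), as did D of 17 of the 89 named genes, including CCA1 (3.31), CBF1 (−2.73) and WRKY53 (−1.07). Another scaling, filter, floor or probe rule turned 8 list medians and 6 named genes, and leaving out an array turned 10 and 6; the 4 genes above were not among them. Without the block the evening clock median was −3.32 in place of −0.51. Normexp moved the median L of all genes from 0.04 to 0.14, and changes under it are to be read against that. Without the replicate block (genotype and age only) D called 81 genes, 20 of the 25 among them, and the median share kept of the altered genes was 0.372 in place of 0.325. With slide 1 against slides 2 and 3 as 1 term that share was 0.369. With all 10 arrays, L called 488 genes, R 331 and D 68, and 485 altered genes had a median share of 0.273. Raising dim signals to a floor gave 319, 210 and 38 calls, 317 altered genes and a share of 0.370, and eBayes with trend and robust variances gave 320 for L, 219 for R, 318 altered genes and a share of 0.270. The share was 0.281 with quantile normalisation, 0.258 with the deposited value table, 0.275 with a filter on 5 arrays and 0.284 with the mean of a gene's probes, which gave an auxin median D of 0.57 in place of 0.75. Normexp on median signals gave medians of −1.82 for floral organ identity genes (−2.41) and 0.63 for auxin, and 19 calls for D, only 8 of them shared. With probes without a locus tested together with the genes, an alternative chosen after seeing the data, D called 0 genes and 0 probes, so the 25 calls lie close to the threshold.

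Leaving out either array of a block removes what it says of the mutant, so 4 distinct fits leave out an array. D called 0 genes in each of them (2165 to 4315 at an unadjusted p under 0.05). L called 98 to 285 genes and R 71 to 363, with 98 to 283 altered genes at a median share of 0.221 to 0.408. The floral median D ran from −2.63 to −1.37 and the floral share from 0.365 to 0.655, and the auxin median D from 0.69 to 1.06. Of the genes named, TIF3C2 and ACC2 also lost their call under other settings (TIF3C2 in 5, ACC2 in 3), and ULT1 and MRD1 only when an array was left out or probes without a locus were added. The cause was not tested. Each mutant value at an age rests on 1 array, and signals at background limit the size of change that can be read for dim genes.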
